A study of Drosophila melanogaster with 3 samples.

Results

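The basement membrane is the sheet of secreted protein under epithelia such as the imaginal disc. The genes described here are 10 of the 15603 genes in the expression table, chosen by name and found by gene symbol: Cg25C and vkg (the collagen IV chains), LanA, LanB1 and LanB2 (laminin chains), trol (perlecan), Ndg (nidogen), BM-40-SPARC (SPARC), Mmp2 and Timp. RNA was sequenced in 3 libraries of eye-antennal disc cells. The first held GFP+ cells of RasV12, scrib-/- tumors ("tumor"), the next GFP- cells of the tumor microenvironment ("TME"), and the last GFP+ cells of GMR>GFP discs ("control"). Each group had 1 library from 50 discs of wandering larvae at day 6, so no difference has a replicate check and no p-value was computed.

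The tumor and TME cells came from discs of the same genotype, in a y,w background, in which ey-flp recombines Frt82B chromosomes, with scrib2 on one and tubGal80 on the other, and UAS-RasV12 and UAS-GFP respond to Act>y+>Gal4. In this mosaic system the GFP+ clones lose tubGal80 and functional scrib and express the oncogenic Ras. The GFP- cells carry the same transgenes without Gal4 activity, and the pool can hold any unlabeled cell of the tumor-bearing disc. The control cells had the genotype GMRGFP and none of these alleles is named for them. GMR is active behind the morphogenetic furrow, where retinal cells differentiate. The control library also held RNA of hth, a disc marker not specific to that region, at 99.7 FPKM, and of hemocyte markers, given below. Which cells these RNAs came from was not tested. The study's design text describes cell sorting and its labels Trizol extraction and the same batch for all 3 libraries, whereas the methods describe manual isolation and a Qiagen kit. The column headings carry a date for the tumor and TME libraries and none for the control.

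Basement membranes are built on a network of laminin trimers and a network of collagen IV trimers, which nidogen and the heparan sulfate proteoglycan perlecan connect. SPARC is a collagen-binding glycoprotein needed for the normal deposition of collagen IV. Matrix metalloproteinases cut these proteins, and Timp inhibits the enzymes. In fly larvae much of the collagen IV of a disc is made outside its epithelium, by fat body cells and hemocytes, the fly's blood cells, and reaches the disc through the hemolymph. Loss of basement membrane accompanies invasion in tumors of this type.

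The values are FPKM, fragments scaled to transcript length and library size, so levels of different genes are on a scale per length. The depth, estimated from the steps between low FPKM values, was about 1843069 fragments for the tumor library, 11008073 for the TME library and 1753360 for the control library. The intervals below are exact 95% intervals on the estimated fragments and cover counting error only, not the spread between animals or preparations. Ras85D, the gene whose activated form the clones express, was at 327 FPKM in tumor cells, 118 in TME cells and 139 in control cells, and scrib was at 51.01, 44.6 and 36.2 FPKM in the same libraries. The 11 eye-antennal disc markers looked up were above 0 in all 3 libraries. By the rule of size given below, 3 were higher and 2 lower in tumor cells than in control cells. Over all tested genes the shares were 12.3% higher and 17.6% lower, and counts this small do not set the markers apart. Among them ey was at 66.0 FPKM in tumor cells, 42.1 in TME cells and 37.4 in control cells, Dll at 65.0, 26.0 and 14.8 FPKM, ct at 4.56, 13.4 and 22.1 FPKM, and the neuronal gene elav at 6.79, 7.90 and 57.3 FPKM in the same libraries. Of 5 glial markers, the factor gene repo was at 3.06 FPKM in tumor cells, 12.1 in TME cells and 27.5 in control cells. In the same libraries Gs2 was at 0.657, 0.432 and 15.5 FPKM and loco at 29.6, 40.2 and 42.5 FPKM. By contrast, moody was at 20.6, 9.69 and 9.89 FPKM and nrv2 at 166, 133 and 123 FPKM. The 5 glial markers summed to 220 FPKM in tumor cells, 196 in TME cells and 219 in control cells. Of 6 tracheal markers, Gasp, verm, serp and pio were higher in tumor and TME cells than in control cells, while trh and btl stayed under 3 FPKM in every library and were highest in control cells.

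The collagen IV chains and SPARC had low RNA levels in tumor cells and high levels in TME and control cells alike. The laminin genes LanA, LanB1 and LanB2 were moderately lower in tumor cells, perlecan was slightly higher there, and Mmp2 and Timp were at similar levels in all 3 libraries. A gene was tested between libraries where its FPKM was above 5 in the higher library and above 0 in the lower, and was called higher or lower where the ratio was at least 2, a rule of size with no statistical test behind it. Of the 10 genes, 9 could be tested in each comparison, and Ndg stayed under 5 FPKM everywhere. Between tumor and control, 3 of the 9 were lower and 0 were higher, against 17.6% of 7686 genes lower and 12.3% higher. Between tumor and TME, 3 of the 9 were lower and 0 higher, against 7.38% of 7166 genes lower and 6.35% higher. Between TME and control, 0 of the 9 were higher and 0 lower, against 5.8% of 7827 genes higher and 14.8% lower. The genes called were Cg25C, vkg and BM-40-SPARC in each of the comparisons with the tumor, which share the same tumor library. The tumor level of vkg is itself under 5 FPKM, so it was tested only through its higher level in the other library.

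**Figure D1:**
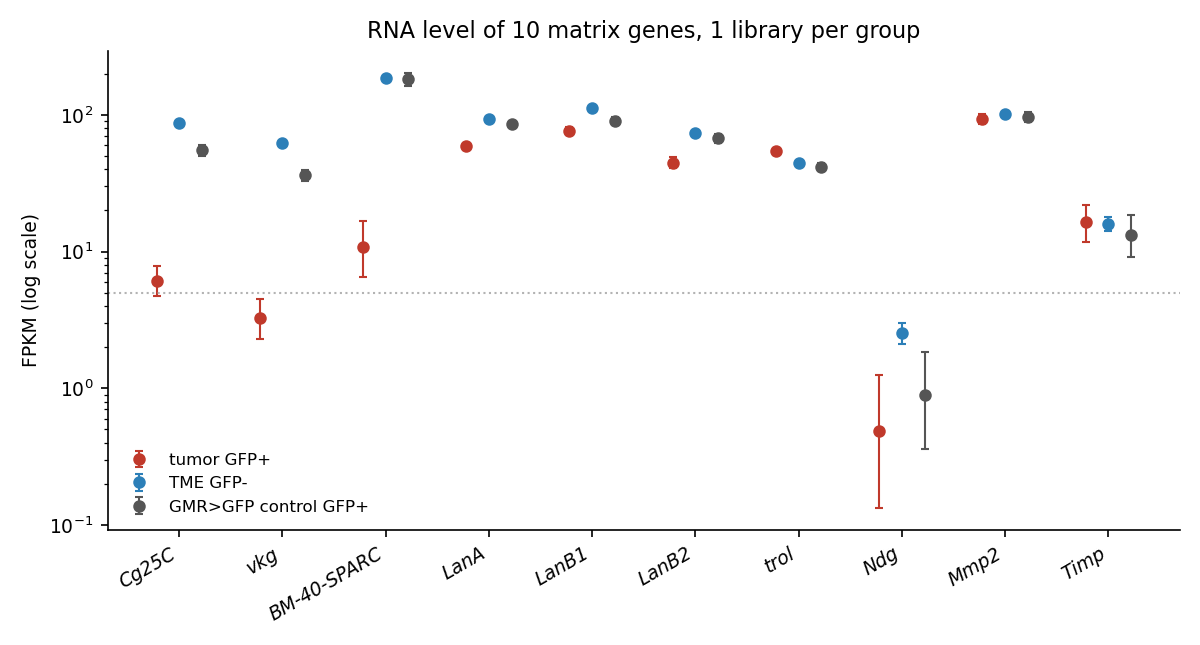
RNA levels of the 10 genes in FPKM on a log axis, with a point for the tumor (red), the TME (blue) and the control (gray) library and bars for the exact 95% counting interval. The dotted line marks 5 FPKM. Cg25C, vkg and BM-40-SPARC lie between 3.24 and 10.8 FPKM in tumor cells and between 36.0 and 187 FPKM in the other libraries, while Mmp2 lies between 93.6 and 101 FPKM in all 3.

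Cg25C, which encodes a chain of collagen IV, was at 6.14 FPKM in tumor cells, 87.9 FPKM in TME cells and 54.8 FPKM in control cells. The tumor value rests on about 62 fragments and its interval runs from 4.70 to 7.87 FPKM, well below the intervals of the other libraries. The ratio of tumor to control was 0.112 (0.0846 to 0.146), which is 8.94-fold lower (6.86 to 11.8). The ratio of tumor to TME was 0.0698 (0.0535 to 0.0897), or 14.3-fold lower (11.2 to 18.7). The TME was above the control, at a ratio of 1.60 (1.47 to 1.76) that lies under the threshold of 2.

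vkg (viking), the gene of the other collagen IV chain, was at 3.24 FPKM in tumor cells, 61.8 FPKM in TME cells and 36.0 FPKM in control cells. About 37 fragments support the tumor value. The tumor was 11.1-fold lower than the control (7.92 to 16.0) and 19.1-fold lower than the TME (13.8 to 27.1). As with Cg25C, the TME exceeded the control, by 1.72-fold (1.55 to 1.91). In the current annotation vkg and Cg25C are neighbors on opposite strands, transcribed away from each other.

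The chains of collagen IV assemble in a fixed ratio, and their RNA levels differed between the libraries in the same direction. The level of Cg25C was 1.89 times that of vkg in tumor cells (1.24 to 2.93), 1.42 times in TME cells (1.37 to 1.48) and 1.52 times in control cells (1.33 to 1.74). The tumor interval covers the values of both other libraries, so a change in the ratio of the chains was not detectable at this depth.

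BM-40-SPARC, the gene of SPARC, was at 10.8 FPKM in tumor cells, 187 FPKM in TME cells and 183 FPKM in control cells. The TME and control libraries did not differ beyond counting error (ratio 1.02, 0.907 to 1.15), and the tumor lay far below both. The tumor was 17.0-fold lower than the control (10.7 to 28.5) and 17.3-fold lower than the TME (11.1 to 28.8), on about 19 fragments for tumor cells. Among the 10 genes, BM-40-SPARC had the highest FPKM in TME cells and in control cells and was in place 7 in tumor cells. The level of BM-40-SPARC was 1.76 times that of Cg25C in tumor cells (0.992 to 2.98), 2.12 times in TME cells (2.02 to 2.24) and 3.33 times in control cells (2.89 to 3.84), so the control held more SPARC RNA per collagen IV RNA than the TME.

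Ranked over all tested genes from the lowest ratio of tumor to TME, vkg was in place 59, BM-40-SPARC in place 65 and Cg25C in place 85 of 7166. For tumor over control the places were 314 for BM-40-SPARC, 452 for vkg and 515 for Cg25C of 7686. The other 6 tested genes were in place 729 or higher for tumor over TME and in place 2021 or higher for tumor over control.

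**Figure D2:**
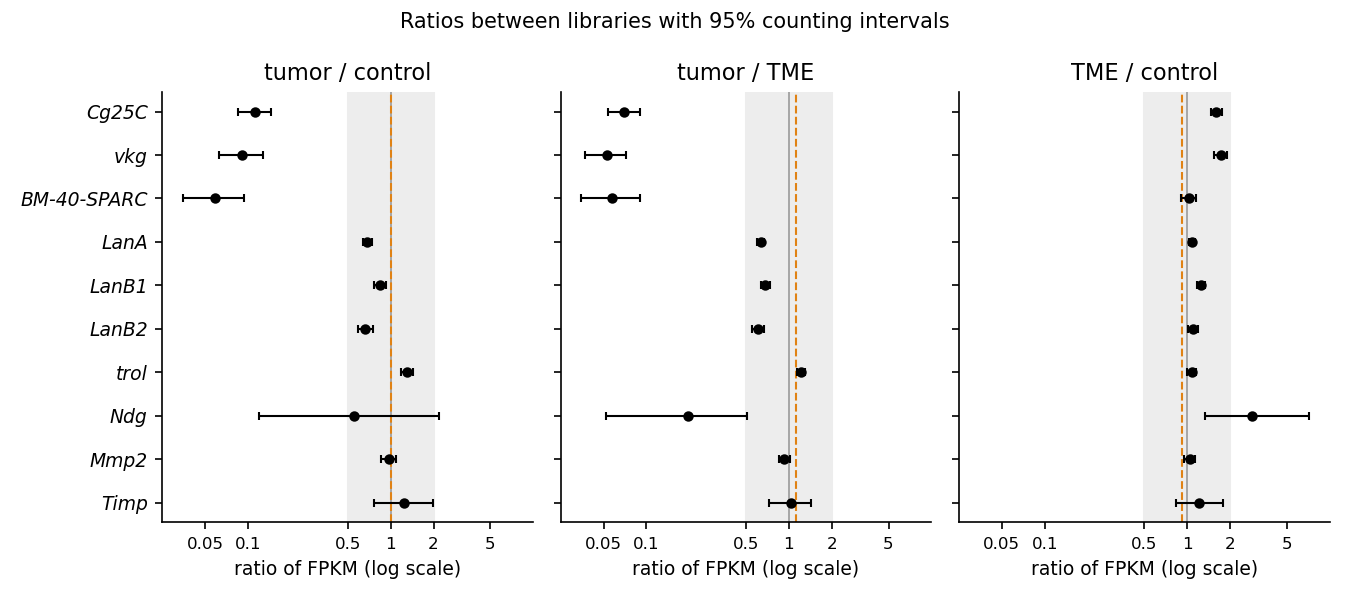
Ratios of FPKM for the 10 genes on a log axis, of tumor to control, of tumor to TME and of TME to control, with exact 95% counting intervals. The gray band spans ratios between 0.5 and 2 and the dashed line is the median of all tested genes. Cg25C, vkg and BM-40-SPARC lie below 0.15 in the first 2 panels, and every gene but Ndg lies inside the band in the last.

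Most hemocyte markers differed between the libraries in the same direction as collagen IV and SPARC. All 13 markers were in the table, and their levels summed to 49.4 FPKM in tumor cells, 984 FPKM in TME cells and 689 FPKM in control cells. Over the markers, the lowest, median and highest levels were 0, 1.74 and 21.4 FPKM in tumor cells, 1.04, 40.5 and 353 FPKM in TME cells, and 1.53, 34.1 and 168 FPKM in control cells. Of those tested, 10 of 11 were lower in tumor cells than in control cells, against 17.6% of all tested genes. Against TME cells 9 of 12 were lower, beside 7.38% of all tested genes. Between TME and control, 3 of 13 (Hml, Nplp2 and lz) were higher and 1 (nimC2) lower in TME cells. Over all tested genes those shares were 5.8% and 14.8%, and counts this small do not set the markers apart between TME and control. In bulk libraries fewer cells of a type and less RNA per cell cannot be told apart, and the part of hemocytes in the levels of Cg25C, vkg and BM-40-SPARC was not tested.

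The tumor levels of the 3 genes, as a share of the TME level, were 6.98% for Cg25C, 5.25% for vkg and 5.78% for BM-40-SPARC. The GATA factor gene srp, which fat body also uses, stood at 6.82% of its TME level, the scavenger receptor gene Sr-CI at 3.91%, the phagocytic receptor genes nimC1 and eater at 3.22% and 1.28%, Hml at 2.40% and He at 2.41%. The crystal cell enzyme genes proPO-A1 and PO45 stood at 1.46% and 0.781%, and Nplp2 at 0.521%. The receptor gene nimC2 was listed at 0 in tumor cells, at 1.04 FPKM in TME cells and at 5.94 FPKM in control cells. The remaining markers differed less between tumor and TME: crq was at 99.7% of its TME level, lz at 88.3% and ush at 55.9%. By these values the 3 genes had a larger share of their TME level in tumor cells than Hml, nimC1, eater, He, Sr-CI, proPO-A1, PO45 and Nplp2, and a smaller share than crq, lz and ush. The tumor values of nimC1, He, eater and Sr-CI rest on about 1, 2, 3 and 10 fragments. Their intervals for tumor over TME overlap those of vkg and BM-40-SPARC, so their order is not resolved. The intervals of Hml, PO45 and Nplp2 lie below those of the 3 genes, and proPO-A1 has no interval.

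Fat body markers were near 0 in tumor cells and in TME cells. The 7 markers summed to 0.770 FPKM in tumor cells, 2.80 FPKM in TME cells and 56.6 FPKM in control cells, with 4, 2 and 1 of them listed at 0. Lsp2, a larval serum protein gene, was at 0.253 FPKM in tumor cells, listed at 0 in TME cells and at 18.2 FPKM in control cells, and Fbp1, a receptor gene for such proteins, was listed at 0 in tumor cells, at 0.139 FPKM in TME cells and at 19.0 FPKM in control cells. Fbp2 was listed at 0 in tumor cells and was at 1.27 FPKM in TME cells and 13.7 FPKM in control cells. Rfabg, the lipophorin gene, Lsp1beta and Lsp1gamma stayed under 4 FPKM in every library, and Lsp1alpha was listed at 0 in all 3. The part of fat body in the levels of the 3 genes was not tested. Among 6 myoblast and muscle markers, twi was at 1.26 FPKM in tumor cells, 13.1 FPKM in TME cells and 10.03 FPKM in control cells. Him was at 0.711, 17.5 and 30.8 FPKM in the same libraries. The list had no common direction, with Mef2 at 19.2, 19.7 and 16.1 FPKM and up at 0.398, 0.909 and 0.874 FPKM. Highest in tumor cells were sls, at 12.1, 7.11 and 3.36 FPKM, and Mhc, at 4.42, 3.51 and 1.29 FPKM. Myoblasts lie under disc epithelia, and their part was not tested either.

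**Figure D3:**
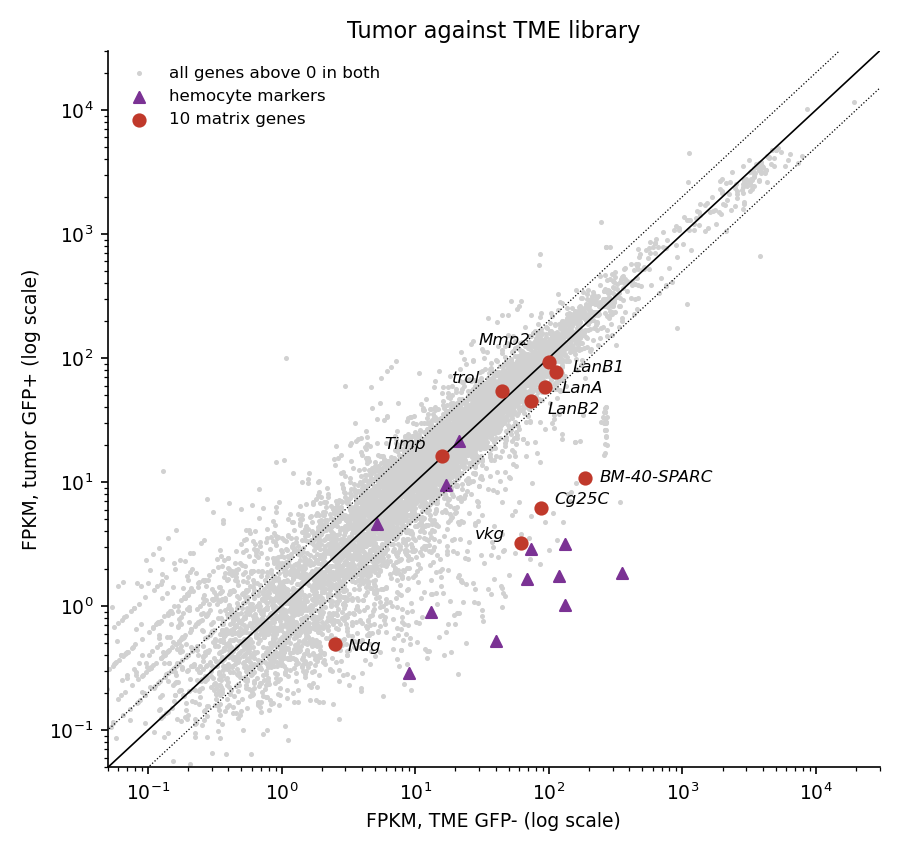
FPKM of each gene above 0 in both libraries, tumor on the vertical and TME on the horizontal log axis, with the 10 genes in red, hemocyte markers as purple triangles and all genes in gray; the solid line marks equal levels and the dotted lines a ratio of 2. Cg25C, vkg and BM-40-SPARC lie far below the line, beside most of the hemocyte markers, and the laminins, trol, Mmp2 and Timp lie between the dotted lines.

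LanA, LanB1 and LanB2 were expressed at 44.8 FPKM or more in every library, the tumor included. The gene wb of another laminin alpha chain, named after its values were seen, is outside the 10 genes. It was at 9.94 FPKM in tumor cells, 11.3 FPKM in TME cells and 9.62 FPKM in control cells. Its ratios of 1.03 for tumor over control (0.821 to 1.30) and 0.879 for tumor over TME (0.741 to 1.04) have intervals that include equal levels. LanA, the gene of the main alpha chain, was at 58.9 FPKM in tumor cells, 93.2 FPKM in TME cells and 85.9 FPKM in control cells. The tumor was the lowest of the 3, at 0.685 times the control (0.637 to 0.737) and 0.632 times the TME (0.596 to 0.670). LanB1, the gene of the beta chain, was at 76.5 FPKM in tumor cells, 112 FPKM in TME cells and 90.4 FPKM in control cells, with ratios of 0.847 to the control (0.770 to 0.931) and 0.680 to the TME (0.632 to 0.731). LanB2, the gene of the gamma chain, was at 44.8 FPKM in tumor cells, 73.8 FPKM in TME cells and 67.3 FPKM in control cells, with ratios of 0.665 to the control (0.589 to 0.750) and 0.607 to the TME (0.550 to 0.668). The 3 chains were thus all lower in tumor cells by more than counting error, and none reached a ratio of 2. In the TME they were at 1.08 (LanA, 1.03 to 1.14), 1.25 (LanB1, 1.16 to 1.33) and 1.10 (LanB2, 1.01 to 1.19) times the control.

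The laminin chains, which assemble as trimers of an alpha, a beta and a gamma chain, differed little in proportion. LanB2 was at 0.760 times the FPKM of LanA in tumor cells (0.682 to 0.847), 0.792 times in TME cells (0.765 to 0.819) and 0.783 times in control cells (0.715 to 0.857), intervals that overlap. LanB1 was at 1.30 times the FPKM of LanA in tumor cells (1.19 to 1.42), 1.21 times in TME cells (1.17 to 1.24) and 1.05 times in control cells (0.970 to 1.14), so the tumor and the TME had more LanB1 per LanA than the control. The ratio of laminin to collagen IV differed far more. LanA was at 9.60 times the FPKM of Cg25C in tumor cells (7.43 to 12.6), 1.06 times in TME cells (1.03 to 1.10) and 1.57 times in control cells (1.42 to 1.73).

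trol, the gene of perlecan, was highest in tumor cells, at 54.2 FPKM, against 44.5 FPKM in TME cells and 41.5 FPKM in control cells. The difference exceeded counting error, at 1.31 times the control (1.19 to 1.44) and 1.22 times the TME (1.14 to 1.30), and stayed under a ratio of 2. With FPKM as deposited the TME and the control did not differ beyond it (ratio 1.07, 0.995 to 1.16), although the interval starts at 1.01 where fragments are counted on the longest transcript. Under alternative scalings of the libraries that ratio reached 1.18, so whether trol differed between TME and control also depends on the scaling. Against LanA, trol was at 0.920 times its FPKM in tumor cells (0.847 to 1.00), 0.478 times in TME cells (0.462 to 0.494) and 0.482 times in control cells (0.442 to 0.525), so perlecan RNA was close to laminin alpha RNA only in tumor cells.

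Ndg, the nidogen gene, was at 0.491 FPKM in tumor cells, 2.53 FPKM in TME cells and 0.890 FPKM in control cells, in the low range of all 3 libraries. These values rest on about 4, 125 and 7 fragments. The tumor was at 0.194 times the TME (0.0521 to 0.510), and the TME at 2.84 times the control (1.34 to 7.20), intervals that leave out equal levels. Tumor and control could not be told apart at this depth (ratio 0.551, 0.118 to 2.17). The exons of Ndg overlap those of CG34222 on the opposite strand, which was listed at 0 in all 3 libraries.

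Mmp2, the gene of a metalloproteinase held at the cell surface, was at 93.6 FPKM in tumor cells, 101 FPKM in TME cells and 96.7 FPKM in control cells. With FPKM as deposited the libraries did not differ beyond counting error. The ratios were 0.968 for tumor over control (0.859 to 1.09), 0.929 for tumor over TME (0.849 to 1.02) and 1.04 for TME over control (0.953 to 1.14). With libraries scaled by the median ratio over genes, Mmp2 was at 0.847 for tumor over TME. Under the alternative scalings TME over control reached 1.15. Whether Mmp2 differed by more than counting error between tumor and TME, or between TME and control, thus depends on the scaling. Timp, the secreted inhibitor of Mmp2, was at 16.3 FPKM in tumor cells, 15.9 FPKM in TME cells and 13.2 FPKM in control cells. Its ratios were 1.24 (0.770 to 2.00), 1.03 (0.725 to 1.42) and 1.20 (0.840 to 1.78) in the same order, intervals that include equal levels. The direction of Timp between tumor and TME depends on the scaling, with ratios between 0.935 and 0.956 under 3 other scalings of the libraries. Timp lies inside the gene Syn on the opposite strand and shares exonic sequence with it. Syn, a synapsin gene, was at 0.289 FPKM in tumor cells, 0.480 FPKM in TME cells and 10.5 FPKM in control cells, and without strand the reads of the shared part cannot be assigned. Mmp2 was at 5.74 times the FPKM of Timp in tumor cells (4.20 to 8.02), 6.33 times in TME cells (5.58 to 7.22) and 7.32 times in control cells (5.18 to 10.7), so no change in the balance of enzyme and inhibitor RNA was detectable.

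The median log2 ratio over all tested genes was 0.00 for tumor over control, 0.17 for tumor over TME and -0.13 for TME over control, and over the 9 tested genes of the basement membrane list it was -0.55, -0.66 and 0.13. Taken relative to the median of all genes, log2 ratios of tumor over TME were -4.01 for Cg25C, -4.42 for vkg, -4.28 for BM-40-SPARC, between -0.89 and -0.73 for the laminins, 0.11 for trol, -0.28 for Mmp2 and -0.13 for Timp. On that scale TME over control was 0.81 for Cg25C, 0.90 for vkg and 0.16 for BM-40-SPARC, so the collagen IV chains stood above SPARC.

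The make-up of the basement membrane RNA therefore differed in tumor cells. The 10 genes summed to 365 FPKM in tumor cells, 779 FPKM in TME cells and 670 FPKM in control cells. Collagen IV and SPARC made up 5.52% of that sum in tumor cells, 43.1% in TME cells and 40.9% in control cells. The laminin chains made up 49.4%, 35.8% and 36.4%, perlecan 14.9%, 5.71% and 6.19%, and Mmp2 with Timp 30.1%, 15.0% and 16.4%, again for tumor, TME and control. These are shares of a sum, so a lower share of collagen IV and SPARC by itself raises the others.

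**Figure D4:**
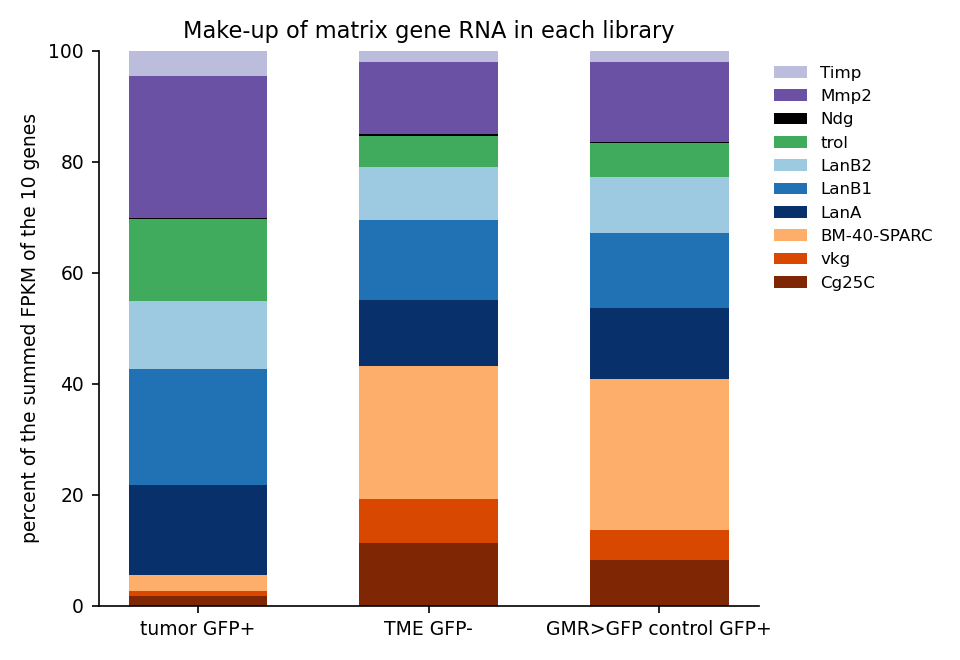
Each bar splits the summed FPKM of the 10 genes in a library into percent per gene, for the tumor, the TME and the control. The brown and orange blocks at the foot, Cg25C, vkg and BM-40-SPARC, take 5.52% of the tumor bar, 43.1% of the TME bar and 40.9% of the control bar.

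The order of the genes by FPKM also differed. In the tumor it was Mmp2, LanB1, LanA, trol, LanB2, Timp, BM-40-SPARC, Cg25C, vkg and Ndg, and the counting intervals of the neighbors LanA and trol, Timp and BM-40-SPARC, and BM-40-SPARC and Cg25C overlapped. In the TME it was BM-40-SPARC, LanB1, Mmp2, LanA, Cg25C, LanB2, vkg, trol, Timp and Ndg, with no overlap between neighbors at its greater depth. In the control it was BM-40-SPARC, Mmp2, LanB1, LanA, LanB2, Cg25C, trol, vkg, Timp and Ndg, with overlap between Mmp2 and LanB1, LanB1 and LanA, and trol and vkg. Mmp2 thus led only in tumor cells, and Ndg was last in each library.

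The 5 genes whose levels over the 3 libraries were nearest to the mean pattern of Cg25C and vkg were alphaTub85E, CG34437, CG33225, NtR and CecC. Nearness was the distance between the log2 ratios of tumor over control and TME over control, among 4739 genes above 0 in all libraries and above 20 FPKM in at least 1. The distances ran from 0.233 for alphaTub85E to 0.499 for CecC, where Cg25C and vkg themselves lie 0.164 from their mean. In tumor cells these 5 genes were between 1.53 and 4.75 FPKM. No counting interval was computed for the distances, so the order may not hold beyond counting error. alphaTub85E, a tubulin gene, was at 1.53 FPKM in tumor cells, 27.2 FPKM in TME cells and 17.6 FPKM in control cells, and CecC, a cecropin gene, was at 4.75, 127 and 57.4 FPKM. Among the genes described here, BM-40-SPARC was in place 22 of that order (distance 1.04) and LanB2 in place 535 (2.79). Of the 9 hemocyte markers in that order, Sr-CI and Hml were in places 8 and 17, and the other 7 (proPO-A1, ush, He, Nplp2, crq, eater and PO45) lay between places 160 and 1714. With 3 libraries a pattern has only these 2 ratios, so closeness describes levels alone.

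Of 12 other extracellular matrix genes 11 were tested, and 3 were higher and 2 lower in tumor cells than in control cells, 3 higher and 3 lower in tumor cells than in TME cells, and 1 higher and 0 lower in TME cells than in control cells. Over all genes tested the shares were 12.3% higher and 17.6% lower for tumor over control, 6.35% and 7.38% for tumor over TME, and 5.8% and 14.8% for TME over control, and counts in lists this small, here and below, set none of them apart from all genes. Peroxidasin, encoded by Pxn, cross-links collagen IV, and Pxn was at 2.84 FPKM in tumor cells, 46.0 FPKM in TME cells and 49.4 FPKM in control cells (tumor over control 0.0574, 0.0292 to 0.102). Glt, the gene of the basement membrane glycoprotein glutactin, was at 5.60 FPKM in tumor cells, 108 FPKM in TME cells and 166 FPKM in control cells (tumor over control 0.0337, 0.0229 to 0.0479). Both were about as low in tumor cells, relative to the TME, as collagen IV, with Pxn at 6.17% and Glt at 5.19% of the TME level. Neither was put on the hemocyte marker list above, which does not cover every gene that hemocytes express. The part of hemocytes in the levels of Pxn and Glt was not tested.

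Ppn, the gene of the proteoglycan-like papilin, was at 29.9 FPKM in tumor cells, 106 FPKM in TME cells and 42.0 FPKM in control cells, and so was highest in TME cells (2.53 times the control, 2.32 to 2.77). Tig, which encodes the integrin ligand tiggrin, went the other way from collagen IV, at 291 FPKM in tumor cells, 51.9 FPKM in TME cells and 37.6 FPKM in control cells. Its tumor level was 7.72 times the control (7.001 to 8.54) and 5.60 times the TME (5.35 to 5.86). The glypican gene dally was at 214 FPKM in tumor cells, 85.9 FPKM in TME cells and 55.8 FPKM in control cells (tumor over control 3.83, 3.39 to 4.34). Named after their values were seen, the other higher genes were the glypican gene dlp, at 74.2, 41.6 and 23.7 FPKM, and the multiplexin gene mp, called only against the TME, at 10.1, 3.89 and 6.23 FPKM. The tumor library was thus low in RNA of collagen IV, SPARC, Pxn and Glt and high in RNA of Tig and the glypicans.

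Among the matrix proteases and their regulators, Mmp1, the gene of the other fly metalloproteinase, was higher in tumor cells, unlike Mmp2. It was at 285 FPKM in tumor cells, 122 FPKM in TME cells and 106 FPKM in control cells, with ratios of 2.69 for tumor over control (2.40 to 3.02) and 2.34 for tumor over TME (2.18 to 2.51). Of 7 genes in the table, 5 were tested between tumor and control (1 higher, 2 lower), 3 between tumor and TME (1 higher, 0 lower) and 5 between TME and control (0 higher, 2 lower). The level of Mmp1 relative to Mmp2 was 3.05 times in tumor cells (2.75 to 3.38), 1.21 times in TME cells (1.15 to 1.27) and 1.10 times in control cells (0.962 to 1.25). Relative to Timp, Mmp1 was at 17.5 times in tumor cells (12.9 to 24.3), 7.65 times in TME cells (6.73 to 8.73) and 8.03 times in control cells (5.65 to 11.8). The tumor thus had more Mmp1 RNA per Mmp2 and per Timp RNA than either other library. Reck, whose mammalian counterpart restrains metalloproteinases, was at 1.07 FPKM in tumor cells, 2.92 FPKM in TME cells and 10.8 FPKM in control cells, and CG31619 (nolo), of the family of ADAMTS-like proteins, was at 0.408, 0.830 and 9.74 FPKM. Reck and CG31619 made up the lower genes of each comparison with the control.

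Of 9 matrix receptor genes, 7 were tested between tumor and control (1 higher, 2 lower), 6 between tumor and TME (1 higher, 1 lower) and 7 between TME and control (1 higher, 1 lower). The integrin alpha gene if was at 32.0 FPKM in tumor cells, 14.4 FPKM in TME cells and 7.80 FPKM in control cells (tumor over control 4.11, 3.19 to 5.34). Dg, which encodes the laminin and perlecan receptor dystroglycan, was at 51.2 FPKM in tumor cells, 69.5 FPKM in TME cells and 120 FPKM in control cells (tumor over control 0.428, 0.382 to 0.478). Ddr, the fly member of a family with collagen receptors in mammals, was at 1.11 FPKM in tumor cells, 2.70 FPKM in TME cells and 7.87 FPKM in control cells. The integrin alpha gene alphaPS5 was highest in TME cells, at 2.86 FPKM in tumor cells, 11.9 FPKM in TME cells and 5.52 FPKM in control cells. With 1 or 2 genes called in a direction, these counts are near the shares over all genes given above.

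Of 17 genes for the modification, assembly and secretion of the matrix, 9 were tested between tumor and control (0 higher, 2 lower), 8 between tumor and TME (0 higher, 1 lower) and 9 between TME and control (1 higher, 0 lower), again near the shares over all genes. Plod, the lysyl hydroxylase gene, was at 22.1 FPKM in tumor cells, 46.7 FPKM in TME cells and 48.9 FPKM in control cells, 0.452 times the control (0.351 to 0.578) and 0.473 times the TME (0.381 to 0.582). The lysyl oxidase gene lox was at 2.55 FPKM in tumor cells, 3.89 FPKM in TME cells and 6.94 FPKM in control cells, on about 6, 56 and 16 fragments. Tango1, which exports collagen from the endoplasmic reticulum, was chosen after its values were seen and was at 24.3 FPKM in tumor cells, 20.3 FPKM in TME cells and 26.0 FPKM in control cells. CG7787 (strat) was called higher in TME cells than in control cells, at 21.1 and 10.4 FPKM (ratio 2.02, 1.17 to 3.77), with 15.6 FPKM in tumor cells. A collagen lysyl hydroxylase was thus lower in tumor cells by a factor of about 2, against the 14.3-fold and 19.1-fold of the collagen IV chains relative to the TME.

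**Figure D5:**
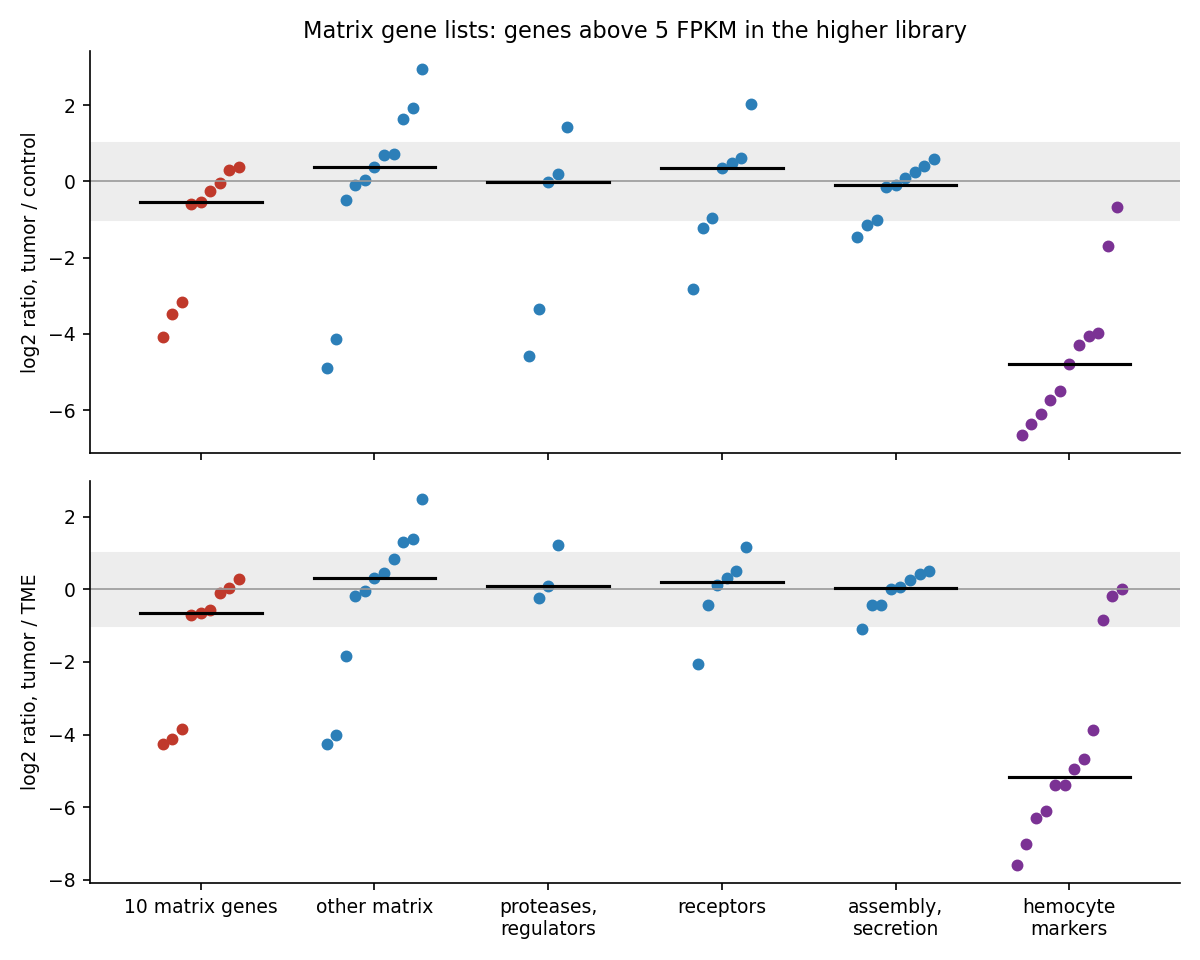
Log2 ratios of tumor over control (top) and tumor over TME (bottom) for genes above 5 FPKM in the higher library, grouped as the 10 basement membrane genes, other matrix genes, proteases and regulators, receptors, assembly and secretion genes, and hemocyte markers. Each point is a gene, the bar is the median of its group and the gray band spans ratios between 0.5 and 2. The medians of the hemocyte markers are -4.79 and -5.17, and those of the 10 genes -0.55 and -0.66.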

How the data were processed

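RNA of 3 fly libraries (tumor, TME, control), 1 per group, was analysed. By the study's methods, the authors made TruSeq libraries for a MiSeq, used the Tuxedo suite with Drosophila genome release 5.2 and deposited FPKM per gene. Versions, annotation, filters and use of strand were not given in the sources used here. Every cell uses RpL15, yet it is one of 3533 genes at 0 throughout, so a 0 can be a failed estimate.

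FPKM were used as deposited. Genes over 5 FPKM in the higher library and over 0 in the lower were tested, and called at a ratio of at least 2. Depth was fitted with Python 3.11.15, numpy 2.4.6, scipy 1.17.1 and pandas 2.3.3 to FPKM of genes with 1 transcript of 400 to 4000 nt. At the fitted depth, 79.8% (tumor), 77.6% (TME) and 79.4% (control) of low values lay within 0.1 of a whole fragment. Evenly spread values would give 20%, but the depth was chosen for nearness to whole fragments on these same values. These shares therefore describe the fit and are no separate check of it. Fragments per gene used the shortest transcript in Ensembl 115, matched for 14927 genes by identifier and 221 by symbol (LanB2 and trol among them). Ratios of estimated fragments have exact Clopper-Pearson 95% intervals. The steps were tested on simulated data. Beyond the 10 genes, all hemocyte, fat body, tracheal, glial, and myoblast and muscle markers were named, with the 5 nearest patterns. From the other matrix lists up to 4 genes per comparison with the largest called ratio were named, besides those marked as chosen later. The disc markers did not follow this rule, as ey and hth were called in no comparison and dac, ato and gl were called but not described. The members, lists and rules were chosen with earlier results of these data known. Alternatives were ratios of 1.5 and 3, floors of 0, 1 and 10 FPKM, pseudocounts of 0.1 and 1 FPKM, 3 scalings and the longest transcript. AdamTS-A was not matched. Promoter sequences were not used here.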

Additional observations from a re-analysis of the deposited data

How the results depend on the processing

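Cg25C, vkg and BM-40-SPARC remained lower in tumor cells than in control cells and than in TME cells under every alternative ratio, floor, pseudocount and scaling. Over the pseudocounts and scalings, tumor over TME ran from 0.0637 to 0.0803 for Cg25C, from 0.0478 to 0.0676 for vkg and from 0.0527 to 0.0628 for BM-40-SPARC, and tumor over control from 0.105 to 0.128, from 0.0845 to 0.115 and from 0.0554 to 0.0641. At a ratio of 1.5, 5 genes were lower in tumor cells than in TME cells, with LanA and LanB2 added to the 3, 4 genes were lower in tumor cells than in control cells, with LanB2 added, and 2 genes, Cg25C and vkg, were higher in TME cells than in control cells. With no floor or a floor of 1 FPKM, 1 gene, Ndg, was higher in TME cells than in control cells, and Ndg joined the genes lower in tumor cells than in TME cells, which were then 4. Of the 30 ratios of the 10 genes, only that of Timp for tumor over TME changed its side of 1. No paired analysis was possible because each group has 1 library and no result comes from a test, and for the same reason no library could be left out. The search for promoter motifs was not run. Depth limits Ndg, Timp and the tumor levels of vkg and BM-40-SPARC most, which rest on between 4 and 43 fragments of the tumor library.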
